A study of Homo sapiens with 4 samples.

Results

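The genes of homologous recombination and of the Fanconi anaemia pathway were followed in A549, an established human lung adenocarcinoma line, after CRISPR targeting of UHRF1. The genes were the 39 listed members of both pathways, taken from the deposited count table by Ensembl identifier through GENCODE 29 (GRCh38, the build of all coordinates given), and they make up 39 of 58735 gene identifiers. RNA-seq read counts were available for 2 UHRF1 KO libraries (A549 given a guide against UHRF1) and 2 control libraries (A549 given a non-targeting guide). Cells of both groups also carry the lentiCRISPRv2-hygro vector and were selected with hygromycin, and the labels do not state the time after infection or whether a pool or a clone was used. No label ties the libraries of a group to separate cultures, so p-values reflect only spread between the 2 libraries of a group, which may be technical. In edgeR each gene's spread was also moderated toward that of all genes tested, giving about 32 degrees of freedom where 2 were residual.

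Homologous recombination repairs a broken chromosome by copying the sister chromatid. Nucleases first resect the ends, the BRCA proteins then load the recombinase, the recombinase paralogs stabilise its filament, and helicases and nucleases separate the joined molecules. The Fanconi pathway acts where a crosslink between the strands blocks replication: a core complex attaches ubiquitin to the FANCD2 and FANCI clamp, which brings nucleases to the lesion. The checkpoint kinases ATR and CHEK1 answer to stalled forks, and ATM and CHEK2 to double-strand breaks. Many of these genes are known to be transcribed mostly in S and G2 phase. UHRF1 binds hemimethylated DNA at the fork, recruits the methyltransferase DNMT1, and is also known as a sensor of interstrand crosslinks that helps to bring in FANCD2.

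Levels are CPM, read counts scaled to a common library total, after TMM scaling for library composition. Total counts ran from 18604598 to 23977168 per library and every one of the 39 genes had at least 71 counts in each library. UHRF1 itself stood at 39.1 and 40.2 CPM in the UHRF1 KO libraries, against 97.6 and 98.9 CPM in the control libraries, a log2 fold change of -1.31 (adjusted p = 3.92e-20 in edgeR, SE 0.055). The transcript was lowered and not lost, and this level does not measure the protein. The 12 A549 markers include keratins and aldo-keto reductases. Their summed level was 12010 and 11945 CPM in UHRF1 KO against 25286 and 24648 CPM in control. The median log2 fold change was -0.47, and single markers ran from -2.02 to 2.16. Of them 11 were called lower and 1, EPCAM, higher, beside 30.1% and 32% of all genes tested. CDKN2A and CDKN2B, which the line is known to lack, had 0 counts throughout. The summed level of 14 markers of other cell types was 61.9 and 66.1 CPM in UHRF1 KO against 7.74 and 9.59 CPM in control. The endothelial gene PECAM1 had 607 and 759 counts in UHRF1 KO and 7 and 2 in control. The filter on low counts kept 7 of the 14 markers, some of them only through their UHRF1 KO counts, so a count of calls among them shows nothing. With no filter 13 could be tested, of which 11 were called higher and 0 lower. In that fit 17.0% of all genes tested were called higher and 15.8% lower. The T cell marker CD3E had 0 counts in all 4 libraries, and the part of these markers in the results was not tested.

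Most of the 39 genes were moderately lower in UHRF1 KO. All 39 passed the filter on low counts, 26 were called lower, 1 was called higher and 12 were not called by edgeR's quasi-likelihood test at an adjusted p under 0.05. Over all 17030 genes tested, 30.1% were called lower and 32% higher. DESeq2 called 22 of the 39 lower and 0 higher, against 17.8% lower and 17.9% higher over all genes. Among protein-coding genes in the same range of mean CPM, 39.3% were called lower by edgeR and 29.3% by DESeq2. With 1 library left out, 26 and 23 were called lower without control replicate 1 or 2, and 26 and 23 without UHRF1 KO replicate 1 or 2, where 27.3% and 26.9%, and 25.8% and 24.9%, of all genes were. The falls lay between 1.15-fold and 1.70-fold and no gene changed 2-fold. The median log2 fold change was -0.36, beside 0.02 over all genes tested. The summed level of the 39 genes was 1275 and 1267 CPM in UHRF1 KO, against 1545 and 1604 CPM in control. Both UHRF1 KO libraries lay below both control libraries in 28 genes and above them in 3, while the groups overlapped in 8; over all genes tested these shares were 38.4% and 41.6%. In bulk RNA, fewer cells in S and G2 phase and less RNA per cell cannot be told apart.

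**Figure D1:**
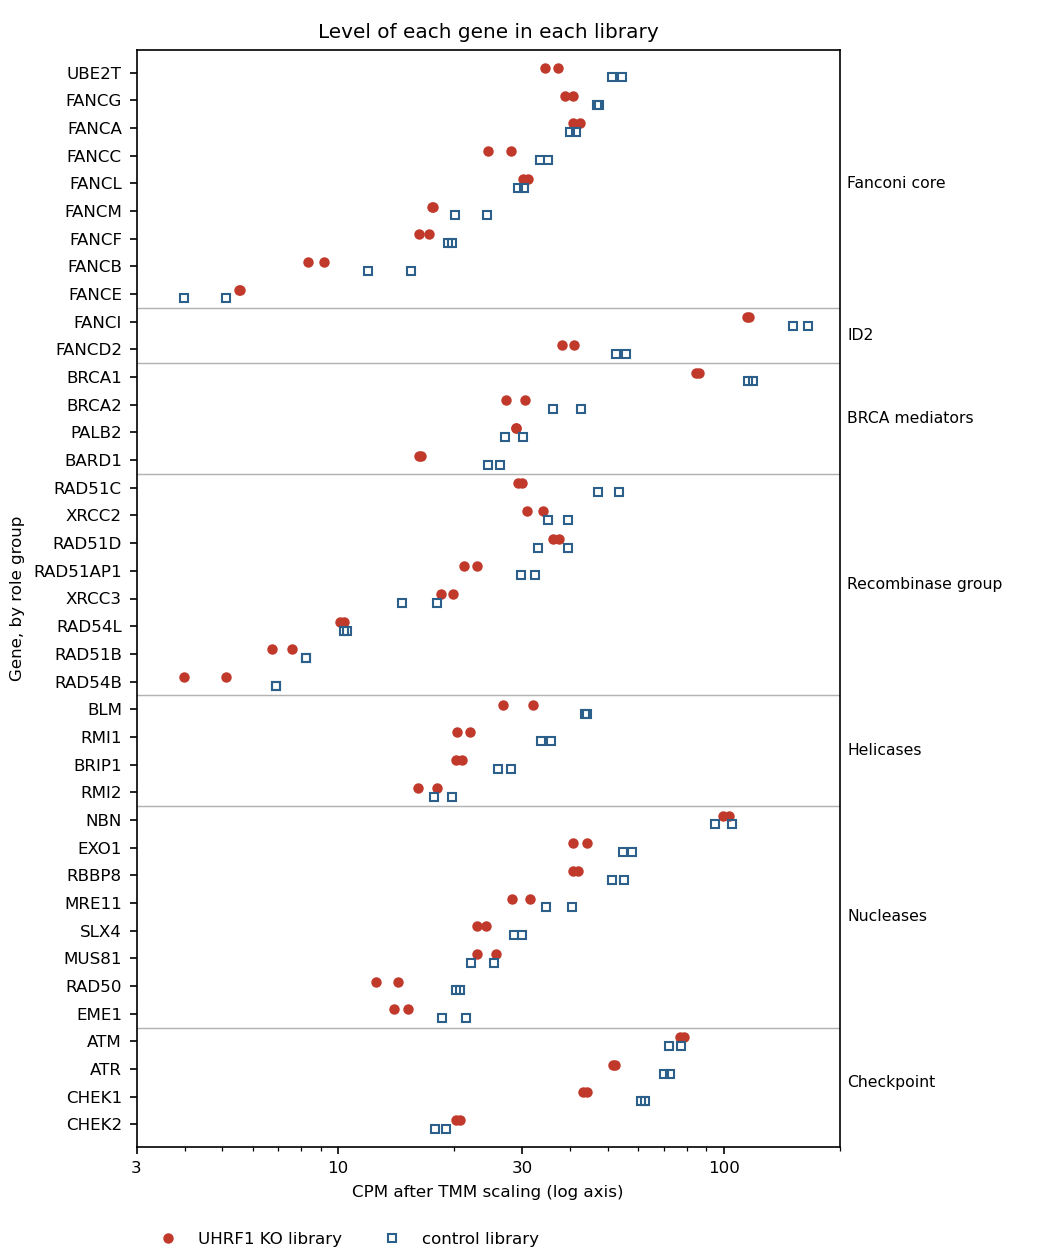
Level of each of the 39 genes in each library (x axis, CPM after TMM scaling on a log axis), sorted by role; filled circles are UHRF1 KO libraries and open squares are control libraries. Circles lie left of the squares in 28 genes; levels are not scaled by length, so genes should not be compared with one another here.

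The number of calls and the median moved with a joint correction for GC content and length. Longest transcripts of the 26 genes called lower had a median GC content of 40.7%, those of the other 13 of 48.7% and those of all genes tested of 48.5%. After removal of each library's trends with GC content and length, 19 of the 39 genes were called lower and 3 higher, and their median was -0.19, while 27.3% of all genes were called lower and 34.6% higher. With every library recentred on its mean as well, which moved the median of all genes to -0.23, 32 were called lower and 0 higher, with a median of -0.48, while 48.2% of all genes were called lower and 20.7% higher. Among protein-coding genes in the same range of mean CPM, 34.1% were called lower with trends removed, with a median of -0.01. With recentring added 63.2% of them were, with a median of -0.31. The same 19 genes were called lower in all 13 alternative fits, and of the 26 only XRCC2 had a value above 0 in one of them. The fit with trends removed by itself called these 19, and the share of all genes called lower in every fit was not computed. Median exon length was 6313 bases in the 26 genes and 4419 in all genes tested. No fit removed the trend with GC content or with length alone, and the part of either in the calls was not tested.

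**Figure D2:**
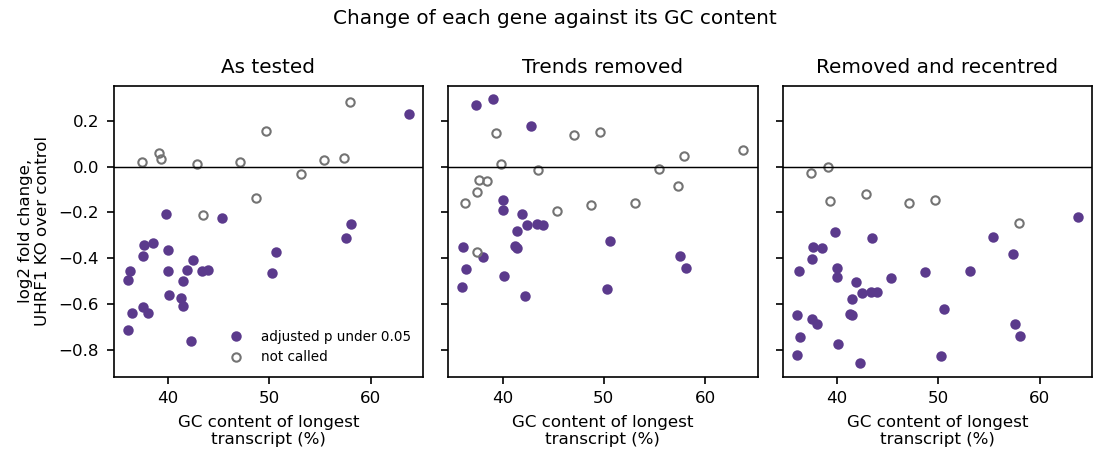
Log2 fold change of each gene, UHRF1 KO over control (y axis), against the GC content of its longest transcript (x axis, percent), as tested, after removal of GC content and length trends, and with recentring added. Filled points passed an adjusted p of 0.05: 27 as tested, 22 with trends removed and 32 with recentring.

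The promoters of the genes were rich in CpG, the dinucleotide that UHRF1 reads once it is hemimethylated. RefSeq windows from 250 bases before to 50 bases after the start (GRCh38.p14) were found for 35 of the 39 genes, and where a gene had several starts the first listed was used. That start need not be the one used in these cells. Windows of RAD51B, with 2 CpG, and FANCC, among others, lay inside the GENCODE span of the gene. They held a median of 27 CpG, with an observed over expected ratio of 0.923, against 14 and 0.580 over 27305 promoters. Those promoters were not limited to expressed genes. The median was 27 CpG in the 24 windows of genes called lower and 28 in the 11 of genes not called lower. An E2F motif (TTTCCCGC, TTTGGCGC, TTTCGCGC or TTTGCCGC on either strand, E2F being the S phase transcription factor family) lay in 5 of the 35 windows, or 14.3%, and in 3.33% of all. The cell cycle homology region, TTTGAA on either strand, lay in 4 of 35 windows (11.4%) and in 15.4% of all, and the NF-Y box CCAAT in 16 (45.7%) and 35.7%. An E2F motif lay in 4 of 24 windows of genes called lower and in 1 of 11 of the others, and TTTGAA in 3 and 1. The NF-Y box lay in 9 (37.5%) and 7 (63.6%). A relation of promoter letters to the falls was not tested. Where several motifs overlapped each was counted, and a match describes letters and not a bound site.

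Stretches just upstream of the start are shown for the genes with the largest falls (RAD51C and RMI1), for 2 of the 3 Fanconi genes with an E2F motif (FANCC and FANCD2, both called lower), and for the apical kinases ATR, called lower, and ATM, not called. Each is written 5′ to 3′ on the strand of the gene, and capitals mark E2F motifs in FANCC and FANCD2, the NF-Y box in RMI1 and the cell cycle homology region in ATM. The third Fanconi gene with an E2F motif, FANCA, holds it farther upstream and was not called, and the other 2 windows with one are those of XRCC2 and EXO1. The motifs of FANCD2 and RMI1 lie on the opposite strand and so read as their reverse complements, the stretch of FANCD2 runs just past the start, and RefSeq starts can differ from those of GENCODE.
RAD51C (chr17:58692473-58692572, plus strand): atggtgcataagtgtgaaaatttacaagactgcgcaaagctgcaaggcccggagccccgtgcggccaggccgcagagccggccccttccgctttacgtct
RMI1 (chr9:83980259-83980358, plus strand): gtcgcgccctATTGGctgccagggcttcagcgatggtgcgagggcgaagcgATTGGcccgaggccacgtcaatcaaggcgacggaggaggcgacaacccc
FANCC (chr9:95317710-95317809, minus strand): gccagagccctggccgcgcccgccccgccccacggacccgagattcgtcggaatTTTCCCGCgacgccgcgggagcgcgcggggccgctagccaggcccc
FANCD2 (chr3:10026337-10026446, plus strand): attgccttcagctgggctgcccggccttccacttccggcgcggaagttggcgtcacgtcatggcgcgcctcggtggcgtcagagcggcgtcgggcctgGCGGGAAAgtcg
ATR (chr3:142578734-142578833, minus strand): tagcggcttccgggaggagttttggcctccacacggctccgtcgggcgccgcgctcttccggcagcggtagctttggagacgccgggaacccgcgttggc
ATM (chr11:108222967-108223066, plus strand): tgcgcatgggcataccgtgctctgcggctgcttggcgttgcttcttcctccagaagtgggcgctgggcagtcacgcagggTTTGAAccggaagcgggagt

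Of the 9 genes of the Fanconi core complex, counting the anchor FANCM and the E2 enzyme UBE2T, 6 were called lower and 0 higher, with a median log2 fold change of -0.25. Over all genes tested 30.1% were called lower and 32% higher. UBE2T, which with the ligase FANCL attaches ubiquitin to FANCD2 (ENSG00000077152, chromosome 1, 202331657 to 202341980), had 37.2 and 34.4 CPM in the UHRF1 KO libraries, against 54.3 and 51.2 CPM in the control libraries. Both UHRF1 KO libraries were below both controls and the log2 fold change was -0.56 (adjusted p = 7.43e-09 in edgeR, SE 0.066). FANCL had 31.1 and 30.1 CPM in UHRF1 KO, against 30.4 and 29.3 CPM in control, the groups overlapped, and the value was 0.04 (adjusted p = 0.702 in edgeR, SE 0.075). Per kilobase of exon, UBE2T was the gene with the highest level of the 39, at 21.7 CPM per kilobase in UHRF1 KO and 31.9 in control.

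FANCB, which holds the catalytic module with FANCL and sits on chromosome X, had 8.34 and 9.21 CPM in the UHRF1 KO libraries, against 11.9 and 15.4 CPM in the control libraries. Its groups did not overlap, although the controls differed from each other by more than the UHRF1 KO libraries did, and the log2 fold change was -0.64 (adjusted p = 6.36e-05 in edgeR, SE 0.13). FANCA, partner of FANCG, had 42.2 and 40.7 CPM in the UHRF1 KO libraries, against 40.0 and 41.3 CPM in the control libraries. The groups overlapped, with a log2 fold change of 0.03 (adjusted p = 0.734 in edgeR, SE 0.066) and an interval of -0.11 to 0.16, and the value was -0.31 with recentring (edgeR adjusted p = 4.96e-05). FANCG, which binds FANCA, fell by 0.25 on the log2 scale (edgeR adjusted p = 0.00125). FANCC, which joins FANCE and FANCF in the substrate-binding module and carries the E2F motif shown, had 24.5 and 28.1 CPM in UHRF1 KO, against 34.9 and 33.4 CPM in control, and its value was -0.37 (adjusted p = 1.33e-04 in edgeR, SE 0.079). FANCM, the DNA translocase that anchors the complex, and the adaptor FANCF fell by 0.34 and 0.23, and both calls were lost with the trends removed (values -0.06 and -0.19, adjusted p = 0.613 and 0.0702) and in DESeq2. Without control replicate 2 the edgeR adjusted p was 0.101 for FANCM and 0.0862 for FANCF, and without UHRF1 KO replicate 2 it was 0.212 for FANCF. FANCE, which binds FANCD2, was the lowest of the core by count, with 115 and 138 counts in UHRF1 KO and 71 and 95 in control, and its value was 0.28 (adjusted p = 0.17 in edgeR, SE 0.18).

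The ID2 clamp, the target of the core complex, was lower in both subunits. FANCD2 (ENSG00000144554, chromosome 3, 10026414 to 10101930) had 38.1 and 40.9 CPM in the UHRF1 KO libraries, against 55.7 and 52.6 CPM in the control libraries. FANCI, its partner (ENSG00000140525, chromosome 15, 89243949 to 89317261), had 115 and 116 CPM in the UHRF1 KO libraries, against 151 and 166 CPM in the control libraries. Neither gene's groups overlapped, and the log2 fold changes were nearly the same, at -0.45 (adjusted p = 2.72e-07 in edgeR, SE 0.064) for FANCD2 and -0.46 (adjusted p = 2.72e-10 in edgeR, SE 0.046) for FANCI. With trends removed the values were -0.25 and -0.25, and both remained called lower. Per kilobase of exon FANCI stood at 14.9 in UHRF1 KO and 20.4 in control, and FANCD2 at 4.71 in UHRF1 KO and 6.46 in control CPM per kilobase.

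Of the BRCA mediators, 3 of 4 were called lower, beside 30.1% of all genes tested. BRCA1, the scaffold that turns breaks toward recombination (ENSG00000012048, chromosome 17, 43044295 to 43170245), had 84.6 and 86.4 CPM in the UHRF1 KO libraries, against 115 and 119 CPM in the control libraries, and its log2 fold change was -0.45 (adjusted p = 4.82e-10 in edgeR, SE 0.047). BARD1, its partner in the ubiquitin ligase, had 16.2 and 16.4 CPM in the UHRF1 KO libraries, against 26.3 and 24.5 CPM in the control libraries, which is 1.56-fold lower, with a log2 fold change of -0.64 (adjusted p = 1.87e-07 in edgeR, SE 0.089). In both genes the libraries of each group lay close together and the groups were well apart. BRCA2, which loads the recombinase (ENSG00000139618, chromosome 13, 32315474 to 32400266), had 30.4 and 27.2 CPM in the UHRF1 KO libraries, against 36.1 and 42.6 CPM in the control libraries. Its log2 fold change was -0.46 (adjusted p = 1.05e-05 in edgeR, SE 0.080), and -0.16 with trends removed (edgeR adjusted p = 0.062), the one alternative fit in which its call was lost. PALB2, the bridge between BRCA1 and BRCA2, had 28.8 and 28.9 CPM in the UHRF1 KO libraries, against 27.1 and 30.2 CPM in the control libraries. The UHRF1 KO libraries lay between the controls, with a log2 fold change of 0.01 (adjusted p = 0.919 in edgeR, SE 0.079) and an interval of -0.15 to 0.17; with trends removed the value was 0.18 (edgeR adjusted p = 0.0413) and with recentring -0.12.

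**Figure D3:**
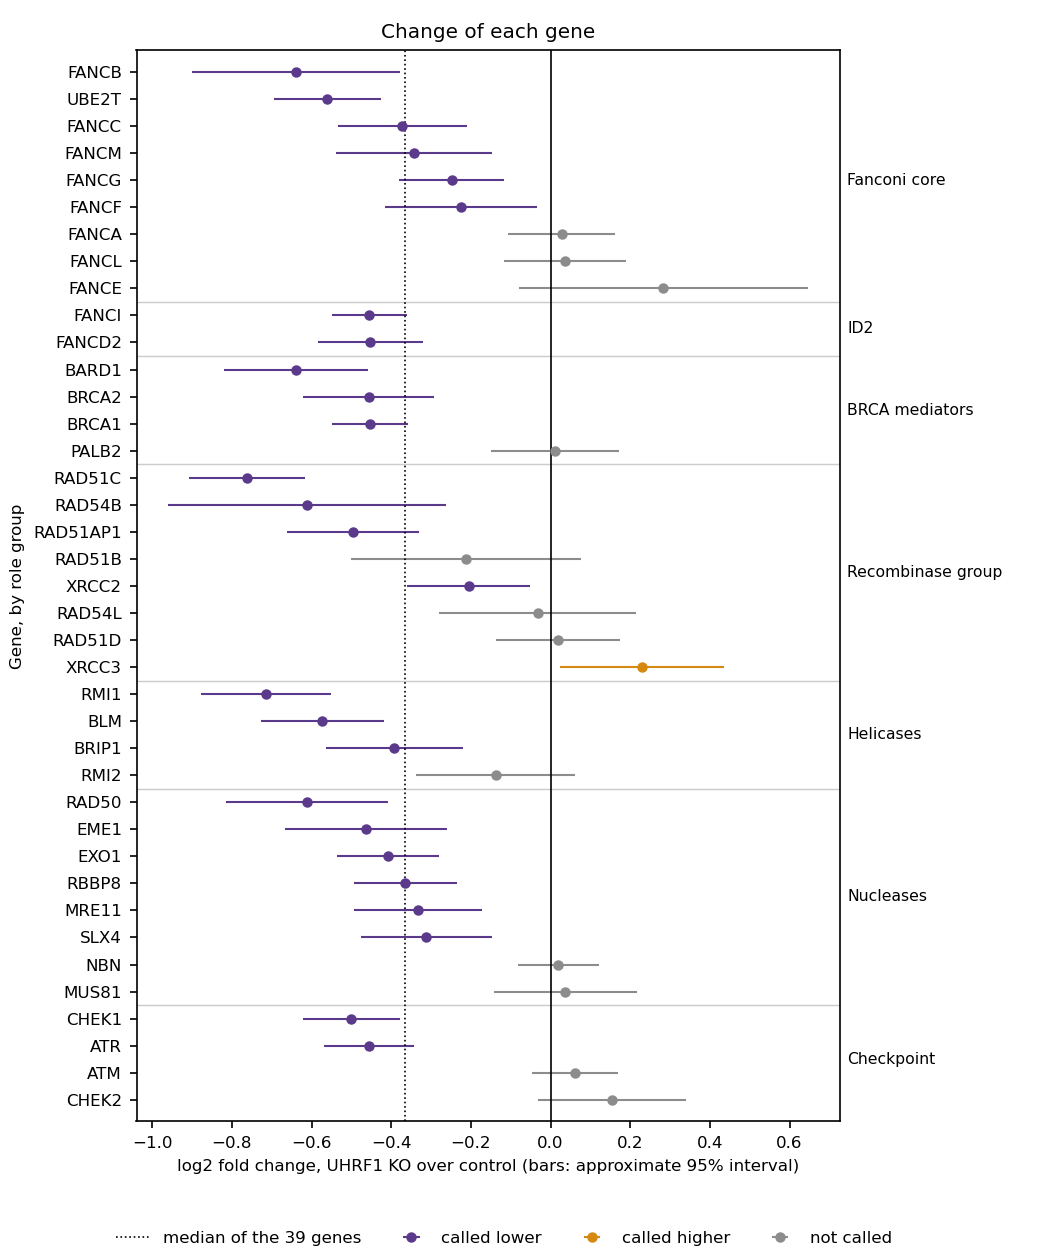
Log2 fold change of each gene, UHRF1 KO over control (x axis), with its approximate 95% interval, sorted by role and by value; colours give the call at an adjusted p of 0.05. The dotted line is the median of -0.36, and each role group holds genes called lower beside at least 1 gene that was not, except the FANCD2 and FANCI pair.

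Of 8 recombinase paralogs and accessory factors, 4 were called lower and 1 higher, with a median of -0.21, beside 30.1% lower and 32% higher over all genes tested. RAD51C, which belongs to both paralog complexes, BCDX2 and CX3 (ENSG00000108384, chromosome 17, 58692573 to 58735611), had the largest fall of all 39 genes, with 29.2 and 29.97 CPM in the UHRF1 KO libraries, against 53.4 and 47.1 CPM in the control libraries. This is 1.70-fold lower, a log2 fold change of -0.76 (adjusted p = 4.14e-11 in edgeR, SE 0.071), and it was -0.56 with trends removed. Of its BCDX2 partners, XRCC2 had 33.9 and 30.9 CPM in UHRF1 KO, against 35.0 and 39.5 CPM in control, and fell by 0.21 (edgeR adjusted p = 0.0189). Its value was 0.01 with trends removed, and its edgeR adjusted p 0.175 without control replicate 2 and 0.22 without UHRF1 KO replicate 2. The call was lost in DESeq2 too (-0.23, adjusted p = 0.145). RAD51B was at -0.21 (adjusted p = 0.197 in edgeR, SE 0.14). RAD51D, the remaining partner, had 37.3 and 36.1 CPM in UHRF1 KO, against 39.5 and 32.9 CPM in control, and its value was 0.02 (adjusted p = 0.839 in edgeR, SE 0.076), with an interval of -0.14 to 0.18 that lies wholly above that of RAD51C, -0.91 to -0.62. The difference between the partners was not itself tested.

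XRCC3, the CX3 partner of RAD51C, was the 1 gene called higher, with 19.8 and 18.5 CPM in the UHRF1 KO libraries, against 18.0 and 14.7 CPM in the control libraries. The groups did not overlap but were near each other, the log2 fold change was 0.23 (adjusted p = 0.0488 in edgeR, SE 0.10), and the call held in 5 of 13 alternative fits. It was lost without control replicate 2, UHRF1 KO replicate 1 or UHRF1 KO replicate 2 (edgeR adjusted p = 0.654, 0.231 and 0.0545). The value was 0.07 with trends removed and -0.22 with recentring (edgeR adjusted p = 0.0451). Exons of KLC1 on the opposite strand cover 76.7% of the exon bases of XRCC3, and KLC1 was itself called higher, at 0.30. The sources used here do not say whether counting used strand, so reads of the 2 genes may be mixed.

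RAD51AP1, which stimulates strand invasion, had 22.9 and 21.2 CPM in the UHRF1 KO libraries, against 29.8 and 32.3 CPM in the control libraries, and its log2 fold change was -0.50 (adjusted p = 3.40e-06 in edgeR, SE 0.082) with groups well apart. RAD54B and RAD54L are translocases that act on the recombinase filament. RAD54B, at 106 and 99 counts in UHRF1 KO and 123 and 128 in control, fell by 0.61 (edgeR adjusted p = 0.00246), a call lost without UHRF1 KO replicate 2 (adjusted p = 0.064), in DESeq2 and with trends removed; FSBP shares 59.1% of its exon bases on the same strand, so its count is uncertain. RAD54L was at -0.03 (adjusted p = 0.833 in edgeR, SE 0.12). It became -0.45 with recentring (edgeR adjusted p = 0.00109).

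The helicases and dissolvasome subunits had a median of -0.48, and 3 of 4 were called lower, beside 30.1% of all genes tested. BLM, the helicase that dissolves double Holliday junctions, had 26.8 and 32.1 CPM in the UHRF1 KO libraries, against 43.6 and 44.3 CPM in the control libraries. RMI1, its structural partner, had 22.0 and 20.3 CPM in the UHRF1 KO libraries, against 33.6 and 35.6 CPM in the control libraries, the largest fall after RAD51C. In both genes every UHRF1 KO library was below every control, and the log2 fold changes were -0.57 (adjusted p = 7.55e-08 in edgeR, SE 0.076) for BLM and -0.72 (adjusted p = 2.29e-09 in edgeR, SE 0.080) for RMI1. RMI2, the small subunit bound to RMI1, had 18.1 and 16.1 CPM in UHRF1 KO, against 17.7 and 19.7 CPM in control. Its groups overlapped, with a log2 fold change of -0.14 (adjusted p = 0.227 in edgeR, SE 0.098), although with recentring it was called lower at -0.46 (edgeR adjusted p = 4.72e-05). BRIP1, the FANCJ helicase that binds BRCA1, fell by 0.39 (edgeR adjusted p = 1.51e-04), and was -0.11 with trends removed (edgeR adjusted p = 0.25).

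**Figure D4:**
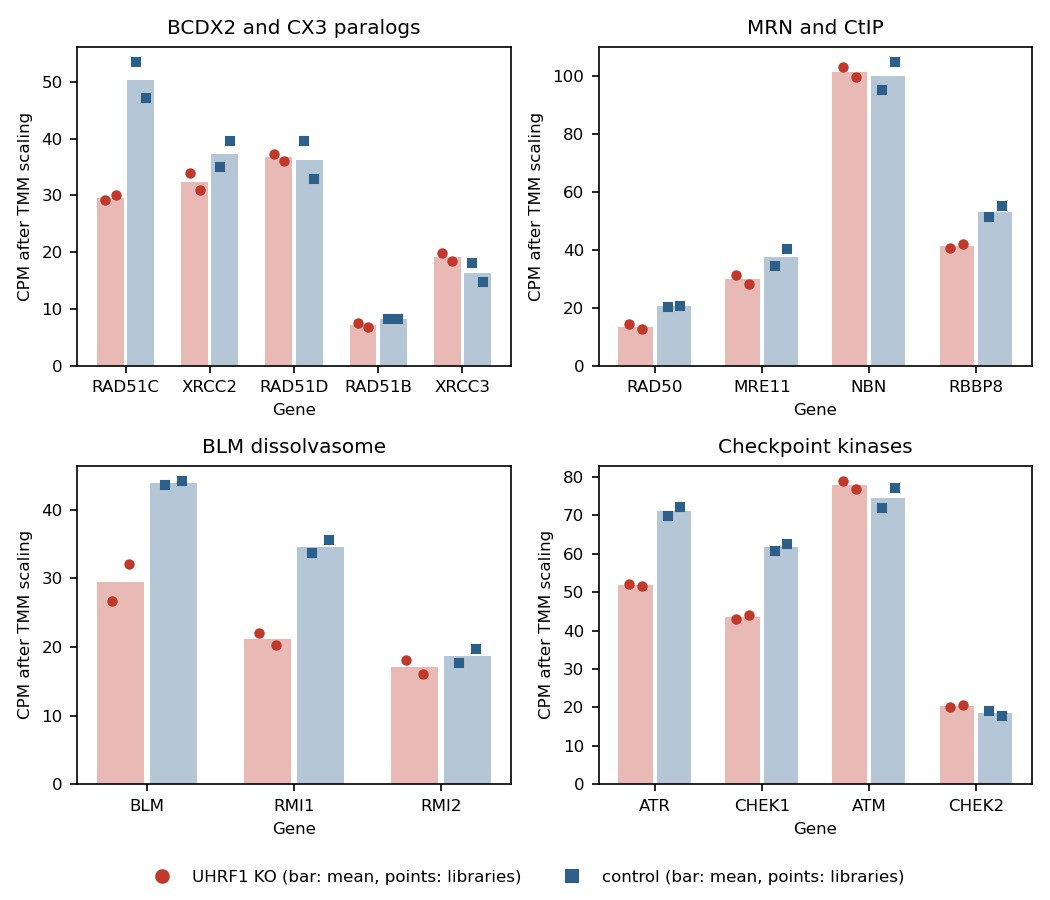
Levels (y axis, CPM after TMM scaling from 0) of subunits of the paralog complexes, the MRN complex with RBBP8, the BLM dissolvasome and the checkpoint kinases; bars are means and points the 2 libraries of UHRF1 KO (left) and control (right). RAD51C, RAD50, RMI1, ATR and CHEK1 lay below control in both UHRF1 KO libraries, while RAD51D, NBN, RMI2 and ATM overlapped it.

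Among nucleases and resection factors 6 of 8 were called lower, beside 30.1% of all genes tested. The MRN complex, which finds and trims broken ends, had 2 of 3 subunits called lower. RAD50, its ATPase, had 14.3 and 12.6 CPM in the UHRF1 KO libraries, against 20.2 and 20.6 CPM in the control libraries, a log2 fold change of -0.61 (adjusted p = 2.91e-06 in edgeR, SE 0.10). MRE11, the nuclease, had 31.4 and 28.2 CPM in UHRF1 KO, against 34.5 and 40.3 CPM in control, and its value was -0.33 (adjusted p = 5.00e-04 in edgeR, SE 0.079), or -0.06 with trends removed (edgeR adjusted p = 0.492). NBN, the subunit that recruits ATM, had 103 and 99.7 CPM in the UHRF1 KO libraries, against 95.002 and 105 CPM in the control libraries. Its groups overlapped at 0.02 (adjusted p = 0.756 in edgeR, SE 0.050), with an interval of -0.08 to 0.12, and with trends removed it was called higher at 0.27 (edgeR adjusted p = 1.77e-06), but was -0.03 with recentring. A readthrough gene listed on the same strand covers 79.7% of the exon bases of RAD50, so the split of reads between the 2 is uncertain.

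EXO1, the exonuclease of long-range resection, had 40.6 and 44.1 CPM in the UHRF1 KO libraries, against 54.7 and 57.9 CPM in the control libraries, and fell by 0.41 on the log2 scale (edgeR adjusted p = 1.23e-06). RBBP8, which encodes CtIP and starts resection with MRN, fell by 0.36 (edgeR adjusted p = 8.17e-06). SLX4, the scaffold for structure-specific nucleases, fell by 0.31 (edgeR adjusted p = 0.00113). EME1 and MUS81 form 1 nuclease. EME1 fell by 0.46 (edgeR adjusted p = 1.60e-04), while MUS81 had 22.9 and 25.6 CPM in UHRF1 KO, against 25.3 and 22.2 CPM in control, with overlapping groups and a value of 0.04 (adjusted p = 0.742 in edgeR, SE 0.088). MUS81 was -0.38 with recentring (edgeR adjusted p = 1.24e-04). EXO1, RBBP8, SLX4 and EME1 were called lower in all 13 alternative fits. Opposite-strand exons of LRRC59 cover 16.4% of the exon bases of EME1. LRRC59 had 6581 and 7757 counts in UHRF1 KO and 7130 and 7510 in control, and was called lower at -0.35. Opposite-strand exons of CFL1, called lower at -0.15, cover 13.9% of those of MUS81. CFL1 had 12334 and 14772 counts in UHRF1 KO and 12368 and 11663 in control. Use of strand in counting is not stated, so reads of these genes may be mixed.

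Of 4 checkpoint kinases, ATR and CHEK1 were called lower and ATM and CHEK2 were not called. ATR (ENSG00000175054, chromosome 3, 142449235 to 142578826) had 52.2 and 51.5 CPM in the UHRF1 KO libraries, against 69.9 and 72.3 CPM in the control libraries. CHEK1, the kinase ATR activates, had 43.0 and 44.1 CPM in the UHRF1 KO libraries, against 60.8 and 62.5 CPM in the control libraries. Both were lower in each UHRF1 KO library, at -0.46 (adjusted p = 1.48e-08 in edgeR, SE 0.056) for ATR and -0.50 (adjusted p = 8.41e-09 in edgeR, SE 0.060) for CHEK1. ATM (ENSG00000149311, chromosome 11, 108222484 to 108369102) had 79.0 and 76.8 CPM in the UHRF1 KO libraries, against 72.0 and 77.2 CPM in the control libraries, and the groups overlapped. CHEK2, the kinase ATM activates, had 20.2 and 20.7 CPM in the UHRF1 KO libraries, against 19.0 and 17.8 CPM in the control libraries, with both UHRF1 KO libraries slightly above the controls. Neither passed the test, at 0.06 (adjusted p = 0.32 in edgeR, SE 0.053) for ATM and 0.15 (adjusted p = 0.141 in edgeR, SE 0.091) for CHEK2. The 95% interval of ATM, -0.05 to 0.17, lies wholly above that of ATR, -0.57 to -0.34, although the difference between the kinases was not itself tested. With trends removed ATM was called higher, at 0.30 (edgeR adjusted p = 1.50e-06), while ATR was -0.19 and remained called lower, and with recentring they were at -0.00076 and -0.48.

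Across role groups the share called lower ran from 2 of 4 checkpoint kinases and 4 of 8 recombinase factors to both genes of the ID2 clamp, and medians from -0.20 to -0.48. Over all genes tested 30.1% were called lower, and 39.3% of protein-coding genes in the same range of mean CPM. In the recombinase group alone single values ran from -0.76 to 0.23. The differences between groups were not tested, since each holds 2 to 9 genes. Per kilobase of exon, the lowest levels were those of RAD54B, at 0.856 in UHRF1 KO and 1.30 in control, and RAD51B, at 0.955 in UHRF1 KO and 1.10 in control CPM per kilobase, and the level of NBN, at 16.5 in UHRF1 KO and 16.2 in control, was among the highest. The 39 genes lie on 18 chromosomes. Exons of 23 of them overlap another annotated gene, over more than 50% of exon bases only in XRCC3, RAD50 and RAD54B. Levels per kilobase of these genes are uncertain too. Opposite-strand exons cover 25.1% of the exon bases of RAD54L (by LRRC41), 23.6% of FANCA (ZNF276) and 18.7% of FANCL (VRK2). RAD54L, FANCA and FANCL were not called, and their reads may be mixed with those of the overlapping genes.

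Of 38 further pathway genes tested, 18 were called lower and 5 higher, with a median of -0.16. Over all genes tested 30.1% were called lower and 32% higher. With recentring the median of the 38 was -0.38, and 30 were called lower and 1 higher. In that fit 48.2% of all genes were called lower and 20.7% higher. BRCC3, the deubiquitinase of the BRCA1-A complex, averaged 39.7 ± 3.34 CPM in UHRF1 KO and 64.2 ± 5.51 CPM in control (SD, n = 2 each), and RPA3, a subunit of the single-strand binding protein, averaged 21.6 ± 2.23 CPM in UHRF1 KO and 33.4 ± 0.897 CPM in control. SFR1, which with SWI5 assists strand exchange, was higher, at 33.7 ± 0.218 CPM in UHRF1 KO and 17.3 ± 2.35 CPM in control, a log2 fold change of 0.97 (adjusted p = 2.21e-11 in edgeR, SE 0.088), and the helicase RECQL5 rose too, at 0.33 (adjusted p = 3.14e-04 in edgeR, SE 0.076). Of 15 checkpoint adaptors 9 were called lower and 3 higher, beside 30.1% and 32% of all genes tested. TOPBP1, the activator of ATR, fell by 0.56 and RIF1, a shield of broken ends, by 0.50 on the log2 scale (edgeR adjusted p = 5.49e-10 and 1.91e-11). WEE1, which restrains CDK1, rose by 0.72 on the log2 scale, and the clamp subunit RAD9A by 0.32 (edgeR adjusted p = 1.46e-11 and 0.00127).

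End joining is the pathway that competes for the same breaks. Of its 15 genes tested, 8 were called lower and 1 higher, with a median of -0.29, beside 30.1% lower and 32% higher over all genes tested. XRCC5 and XRCC6, the Ku subunits, averaged 368 ± 7.73 CPM in UHRF1 KO and 546 ± 6.27 CPM in control and, for XRCC6, 295 ± 4.44 CPM in UHRF1 KO and 383 ± 7.43 CPM in control (SD, n = 2 each). POLM, a polymerase that fills joined ends, was the 1 that rose, at 19.4 ± 0.1499 CPM in UHRF1 KO and 10.8 ± 0.0854 CPM in control, a log2 fold change of 0.84 (adjusted p = 1.69e-08 in edgeR, SE 0.10). No test set this list against the recombination genes.

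All 22 G2/M genes were called lower, with a median of -0.89, and 19 of 22 S phase genes, with a median of -0.42 and 1, cyclin E1 (CCNE1), higher. Beside these lists, and the regulators named below, 30.1% of all genes tested were called lower and 32% higher. MKI67, the proliferation antigen, averaged 277 ± 5.52 CPM in UHRF1 KO and 545 ± 31.1 CPM in control (SD, n = 2 each), and TOP2A averaged 378 ± 9.92 CPM in UHRF1 KO and 772 ± 41.6 CPM in control. MCM4 and MCM3 of the replicative helicase fell by 0.36 and 0.41 on the log2 scale (edgeR adjusted p = 7.73e-10 and 1.55e-09). With trends removed the medians were -0.78 for G2/M, -0.37 for S phase and -0.19 for the recombination and Fanconi genes. Of 18 regulators of these programmes 9 were called lower and 1 higher, with LIN9, a subunit of the DREAM complex, down by 0.68, TFDP1, the partner of E2F, down by 0.50 and RBL2, a DREAM pocket protein, up by 0.22 on the log2 scale (edgeR adjusted p = 7.09e-08, 1.54e-10 and 0.00222). The part of cell cycle distribution in the falls of the recombination genes was not tested.

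**Figure D5:**
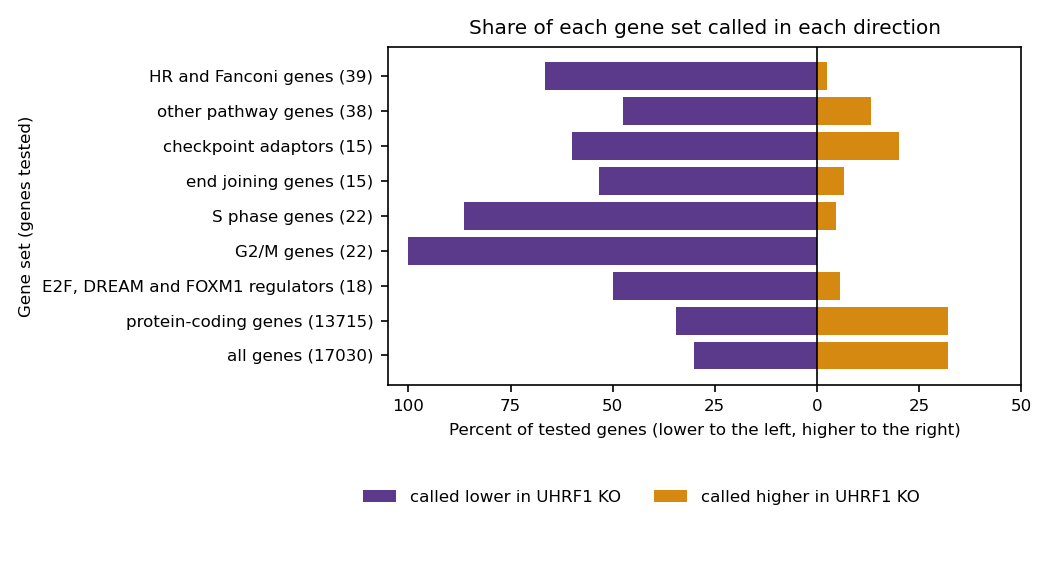
Percent of the tested genes of each set called lower (bars to the left) and higher (bars to the right) in UHRF1 KO at an adjusted p of 0.05, with the number tested in brackets. The 39 recombination and Fanconi genes (66.7% lower, 2.56% higher) lie between the S phase genes (86.4% lower) and all genes tested (30.1% lower, 32% higher).

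Of 10 germline partners of recombination proteins 9 were tested, and 3 were called higher and 3 lower (33.3% each), near the shares over all genes tested (32% higher and 30.1% lower). SPATA22, a meiotic single-strand binding partner, had 40 and 60 counts in UHRF1 KO and 0 in both control libraries, so only its UHRF1 KO counts carried it past the filter. MND1, a cofactor of strand exchange, had 152 and 166 counts in UHRF1 KO against 243 and 243 in control, a log2 fold change of -0.94 (adjusted p = 9.57e-08 in edgeR, SE 0.13). TEX15, needed for meiotic recombination, had 56 and 74 counts in UHRF1 KO against 19 and 14 in control and rose, with a log2 value of 1.64 (adjusted p = 2.42e-05 in edgeR, SE 0.31), and PSMC3IP, the partner of MND1, fell by 0.29 (edgeR adjusted p = 0.00949). The meiotic nuclease SPO11 had 0 counts in all 4 libraries.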

How the data were processed

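Raw read counts per gene, not normalized, were deposited by the authors as whole numbers in 1 table with a column for each of the 4 libraries. Per the labels' protocols, Trizol RNA went into a SMARTER mRNA-Seq kit. FastQC 0.10.1 and GRCh38 stand in the submitters' processing notes, while aligner, counter, annotation, strand setting and treatment of multi-mapping reads are not stated in them. Both control samples carry the description of number 1, so control columns were matched by the number in the sample titles, and their group is certain while their numbers are less so.

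All 58735 identifiers matched GENCODE 29 (GRCh38). The main test was edgeR 4.0.16 in R 4.3.3 (filterByExpr, TMM, robust quasi-likelihood test, two-sided, Benjamini-Hochberg over 17030 genes, threshold 0.05, any fold). The biological coefficient of variation was 3.16%. SEs were derived from the log2 fold change and the root of its F statistic, and intervals use the moderated degrees of freedom, so both are approximate. Replicates differed by more than counting noise (chi-square per degree of freedom 1.85 for UHRF1 KO and 2.65 for control). The steps were also run on simulated counts, with few changed genes and a common spread for all. That setting differs from these data, so the run does not test the scaling or the trend fits here. Alternatives were DESeq2 1.42.0, limma-voom (limma 3.58.1), other size factors and filters, the replicate block, each library left out, removal of per-library loess trends with GC content and exon length, and a threshold of 0.01. The genes named in full were, in each of 7 role groups, the 2 with the smallest and the 1 with the largest adjusted p, the gene called higher, and BRCA1, BRCA2, FANCD2, ATM and ATR. From the other lists up to 2 called genes in each direction were named, with SPATA22, SPO11 and CD3E chosen after their values were seen. The genes and lists were chosen with earlier results of these data known. The guide sequences were not used here.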

Additional observations from a re-analysis of the deposited data

How the results depend on the processing

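Of 26 genes called lower, 19 were called lower in each of the 13 alternative fits. The share of all genes called lower in every fit was not computed. FANCF, FANCM, BRCA2, XRCC2, RAD54B, BRIP1 and MRE11 were not called lower in at least 1. The count lower was 22 with DESeq2, 19 with GC content and length trends removed, 32 with recentring added and 24 at a threshold of 0.01, and 23 to 26 with 1 library left out. At the threshold of 0.01, 25.3% of all genes tested were called lower and 27.1% higher. The count higher, 1, was 0 with no filter, DESeq2, limma-voom, recentring and the threshold of 0.01, 3 with trends removed and 0 to 1 with 1 library left out. The median was -0.19 with trends removed, -0.48 with recentring and -0.44 (without control replicate 1) to -0.33 (without control replicate 2) with 1 library left out. Over all genes, recentring gave 3530 higher and 8205 lower, against 5445 and 5118. The cause of these shifts was not tested.

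Counts higher in the other lists were, for further pathway genes, 2 with DESeq2 and with trends removed, 1 with recentring, and 2 to 5 with 1 library left out; for checkpoint adaptors, 1 with DESeq2 and with recentring; for end joining, 2 with trends removed; for the regulators, 0 with DESeq2 and with recentring, 4 with trends removed and 0 to 1 with 1 library left out. Further pathway genes called lower numbered 30 with recentring, where 48.2% of all genes were, and germline partners 1 with DESeq2, where 17.8% of all genes were.

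Some values changed sign on the log2 scale, among them those of XRCC3 (called higher, then lower with recentring), XRCC2 (called lower) and FANCE (not called). With no filter these were FANCA -0.0046, PALB2 -0.022, RAD51D -0.013 and NBN -0.013. With DESeq2 these were PALB2 -0.013, RAD51D -0.0044 and NBN -0.0036. With trends removed these were FANCA -0.011, XRCC2 0.012 and MUS81 -0.085. With recentring these were FANCA -0.31, FANCE -0.25, FANCL -0.15, PALB2 -0.12, RAD51D -0.16, XRCC3 -0.22, NBN -0.025, MUS81 -0.38, ATM -0.00076 and CHEK2 -0.14. With 1 library left out the ranges were FANCA -0.014 to 0.051, FANCL -0.013 to 0.055, PALB2 -0.084 to 0.070, RAD51D -0.13 to 0.14, NBN -0.068 to 0.070, MUS81 -0.078 to 0.12 and ATM -0.0071 to 0.092.

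The replicate number as a block, with a median of -0.37, called the same 26 and 1 genes. Calls over all genes in that fit were 5280 higher and 4986 lower. Deviations of same-numbered libraries correlated at -0.014 over the genes tested. The control numbers are uncertain, and whether same-numbered libraries share a culture or batch was not tested. With 2 libraries per group, depth limits mainly FANCE, RAD54B and RAD51B, the genes with the fewest counts.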
